A study of Apis mellifera with 4 samples.

Results

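AmCyp006BE1 is a cytochrome P450 gene of the honey bee, Apis mellifera, and 1 of 313 genes on a two-colour oligonucleotide array used to compare the antennae of workers and drones. Its members here are the 2 printed spots with that name, read in both channels on 4 arrays, which gives 16 spot signals. It was chosen by its worker over drone ratio, which, averaged over the same 4 arrays, was the largest of the 313. Its ratio is therefore given as a description, with no test. Of the 49 P450 genes on the array, 22 carry CYP6 names and AmCyp006BE1 is 1 of them.

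Cytochrome P450s are heme enzymes that use oxygen and electrons from a partner reductase to oxidise small, mostly hydrophobic molecules. In insects, CYP6 enzymes are best known for acting on plant compounds and insecticides, and P450s of the antenna have been discussed as enzymes that could clear odorant molecules around olfactory neurons. Other P450s make or break down hormones such as the moulting hormone. No substrate of the AmCyp006BE1 enzyme is given in the sources used here. The files identify the gene by its name and probe number 17665302, and neither its sequence nor its genome position was used here.

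The worker samples were 4 pools of whole antennae from worker bees, which are females, and the drone samples were 4 pools from drones, which are males. Per the labels, all bees were caught at the hive entrance and each pool held 50 sets of antennae. No strain, colony or age is stated. Each array took 1 worker and 1 drone pool, with 20 µg of total RNA per labelling, and the design text calls every pool an independent collection. Whole antennae mix many cell types, so fewer cells of a type and less RNA per cell cannot be told apart in any value that follows.

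The array was labelled with an even dye swap by the label fields, with worker RNA in Cy5 on arrays 1 and 3 and in Cy3 on arrays 2 and 4. On arrays 2, 3 and 4 the written labelling protocols name the opposite dye. With the label fields, the worker over drone ratios of all genes correlated between arrays at r = 0.39 to 0.78 across genes, which are not independent replicates. With the dyes of the written protocols, array 1 correlated with the others at -0.78 to -0.42, and the label fields were used. Such correlations would be unchanged if the dyes of all 4 arrays were reversed. The direction, worker against drone, thus rests on the labels, and only for array 1 do both sources agree, with worker RNA in Cy5. The antennal markers AmOr002, AmSNMP, AmOBP01 and AmOBP02 (the olfactory co-receptor, a sensory neuron membrane protein and a pair of antennal binding proteins) were above the negative controls on 4 of 4 arrays in both sexes. That was with a bright control, oligo 4, left out. With it kept, AmOr002 passed on 2 arrays in worker, AmSNMP on 3 in worker and 2 in drone, and AmOBP02 on 1 in drone. The other counts stayed at 4. The summed signal of the 4 antennal markers ran from 30793 to 157717 scanner units in worker and from 73344 to 95631 in drone channels. The 5 opsins, markers of visual tissue, were each above the controls on at most 2 arrays in worker and 1 in drone. Their summed signal ran from 357 to 2658 in worker and from 172 to 2348 in drone channels. AmLop2, a long-wavelength opsin, exceeded the controls nowhere.

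AmCyp006BE1 gave a strong signal in every worker pool and a weaker one in every drone pool. A spot's signal is the median of its pixels minus the local background, in scanner units on a scale that ends at 65535. On array 1 the worker signals of the 2 spots were 65427 and 60510 and the drone signals 3931 and 3095. On array 2 the worker signals were 55204 and 26060 and the drone signals 1674 and 967. On array 3 the worker signals were 30357 and 24695 and the drone signals 1118 and 1066. Across these 3 arrays the lowest worker spot lay far above the highest drone spot. On array 4 the worker signals were 21346 and 31442 and the drone signals 2209 and 2733. The 8 worker spots ranged from 21346 to 65427 and the 8 drone spots from 967 to 3931. The sexes thus did not overlap in raw signal, whichever dye each carried, as the choice of the gene by its ratio would favour.

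**Figure D1:**
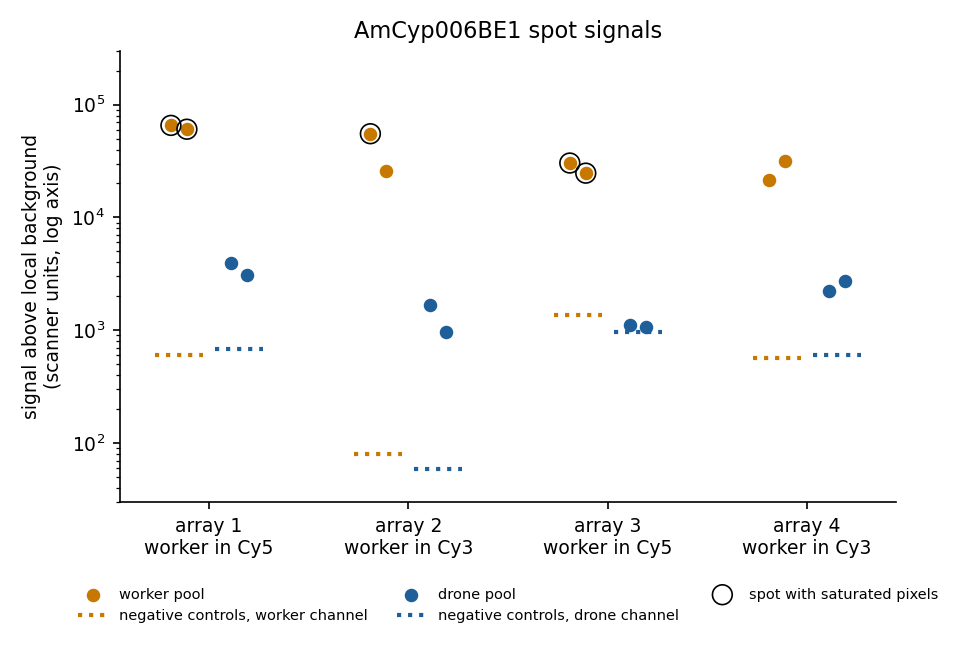
Signal above local background (log axis, scanner units) of the 2 AmCyp006BE1 spots on each of 4 arrays, for worker and drone pools. Dotted bars mark the negative control level of each channel and open circles mark spots with saturated pixels: the 8 worker spots lie at 21346 or more and the 8 drone spots at 3931 or less, and circles appear on 5 worker spots.

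The gene was detected in both sexes. The negative control level was set in each channel at the mean plus 2 SD of the signals of 7 kinds of control oligonucleotide, leaving out the bright control oligo 4. The worker signal was 104, 505, 20.0 and 46.8 times that level on arrays 1 to 4. The drone signal was 5.19, 22.5, 1.12 and 4.11 times it. Drone antennae thus gave a signal above the controls on 4 of 4 arrays, but on array 3 only just. With oligo 4 kept, the worker signal stayed above on 4 arrays and the drone signal on 1, array 2, where it was 1.06 times the level. On array 3 the share of drone pixels brighter than the background plus 2 SD was 6% in the first spot and 96% in the second. On the other arrays it was 82% or more.

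Saturation touched the worker channel of AmCyp006BE1 and not the drone channel. In the first spot of array 1 the worker median stood at the top of the scale, with 70% of its pixels saturated, and in the second spot 30% were. The first spot of array 2 had 38% and the spots of array 3 had 18% and 3%. No worker pixel was saturated in the second spot of array 2 or on array 4. In all, 5 of 8 worker spots and 0 of 8 drone spots held saturated pixels. A saturated pixel is recorded at the top of the scale whatever its true brightness, so the worker signal of the first spot on array 1, whose median was itself saturated, is a lower bound. In the other 4 spots the median pixel was below the top of the scale.

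Per spot, the raw worker over drone ratio ran from 9.66 to 33.0. Averaged over the spots on the log2 scale, the raw ratio was 18.0 on array 1, 29.8 on array 2, 25.1 on array 3 and 10.5 on array 4. As log2 values these were 4.17, 4.90, 4.65 and 3.40, with a mean of 4.28 ± 0.66 (SD, n = 4 arrays). Array 4 was the lowest before normalization. On that array the worker channel, Cy3, was the brighter for the median gene, with a signal of 640 against 172.5 in the drone channel, Cy5. Why the ratio was lowest on array 4 was not tested.

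After background correction by normexp and loess normalization within each array, the log2 worker over drone ratio of AmCyp006BE1 was 4.30, 4.84, 4.15 and 4.52 on arrays 1 to 4. The mean was 4.45 ± 0.30 (SD, n = 4), a 21.9-fold higher signal in worker antennae, and this is the value that chose the gene. Folds on single arrays were 19.7, 28.6, 17.7 and 23.0. The 4 arrays spanned 0.70 on the log2 scale, against 1.50 for the raw ratios. Against the same background-corrected values without normalization, loess moved arrays 1 to 4 by 0.15, 0.02, -0.38 and 1.16. In the authors' deposited table, the spots of AmCyp006BE1 averaged log2 values of 4.13, 4.05, 3.71 and 4.11 on arrays 1 to 4. That table gives no method or direction, and its columns were read as worker over drone because they correlated with the ratios computed here at r = 0.91 to 0.98 across genes.

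**Figure D2:**
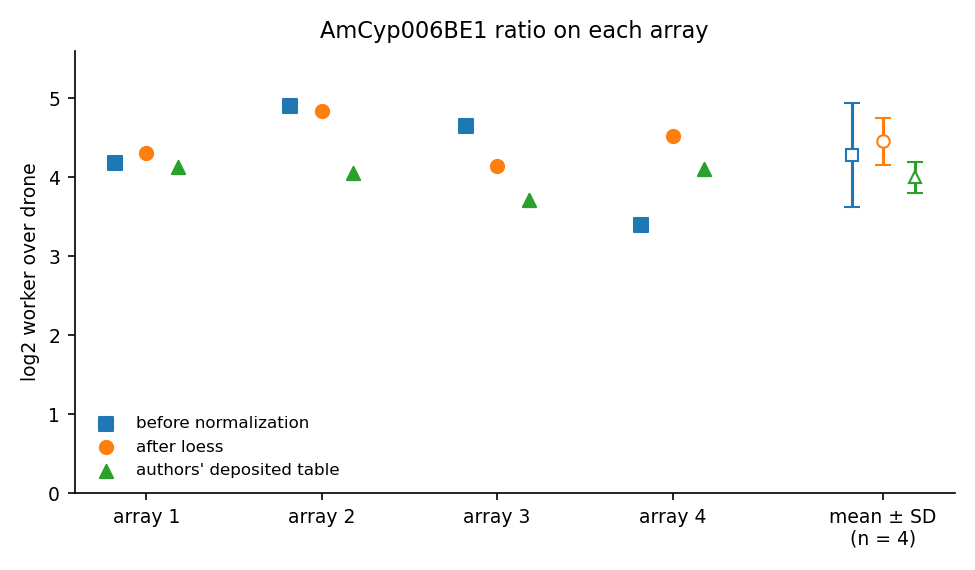
Log2 worker over drone ratio of AmCyp006BE1 on each array before normalization, after loess and in the authors' deposited table, with the mean and SD over 4 arrays of each series at the right. Array 4 is lowest before normalization (3.40) and lies within the range of the others after loess (4.52).

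On each of the 4 arrays AmCyp006BE1 ranked first of 313 genes by this ratio, as its choice would favour. The nearest gene was AmAAR2 on arrays 1, 2 and 4, with log2 ratios of 3.68, 4.08 and 3.24, and AmOBP19 on array 3, with 3.84. The gap was smallest on array 3. Over all 4 arrays the gene just outside the choice was AmOBP11, an odorant binding protein, with a mean log2 ratio of 3.43 against 4.45.

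**Figure D3:**
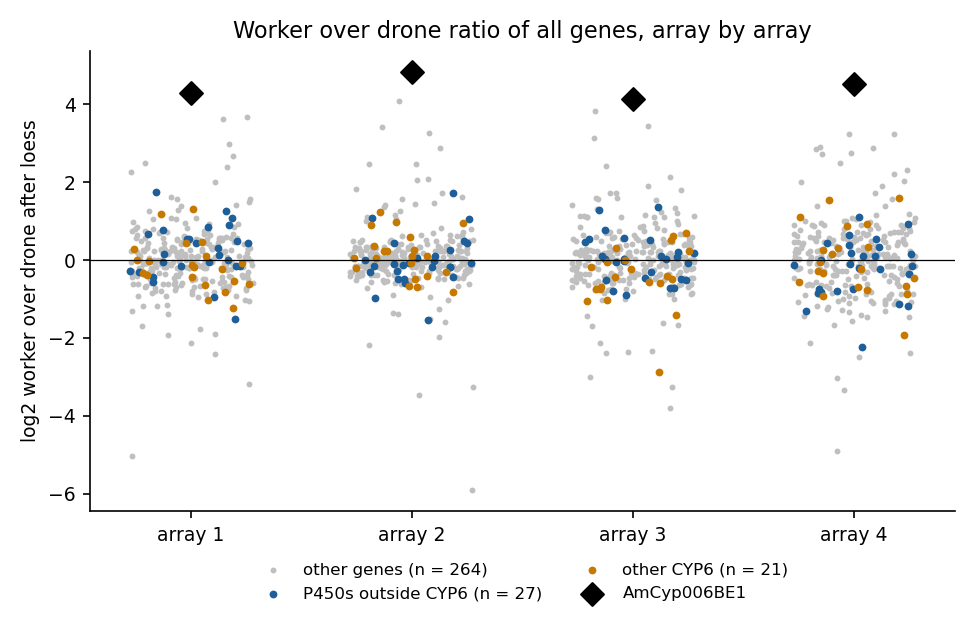
Log2 worker over drone ratio after loess for all 313 genes on each of 4 arrays. AmCyp006BE1 (diamond) is at 4.30, 4.84, 4.15 and 4.52 and lies above every other gene on each array, with the other 21 CYP6 genes and the 27 P450s outside CYP6 spread on both sides of 0.

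The ratio without saturated signal was also examined. With the loess curves kept, leaving out the 1 spot of the gene with a saturated median took array 1 from 4.30 to 4.43 and the mean to 4.48. Leaving out the gene's spots with any saturated pixel removed arrays 1 and 3 altogether and left 1 spot on array 2 and both on array 4. These gave 4.66 and 4.52, a mean of 4.59 or 24.1-fold, from 2 arrays that both had worker RNA in Cy3. When the saturated spots of all genes were left out and loess was fitted again, the means were 4.59 without saturated medians and 4.69 without any saturated pixel. All but the third of these 4 choices were made after seeing the data.

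The level of the gene in each pool, after loess within arrays and quantile scaling of average intensities between them, followed the array as well as the sex. On the log2 scale the worker pools had levels of 15.75, 16.23, 13.52 and 15.43 on arrays 1 to 4, with a mean of 15.23 ± 1.19 (SD, n = 4). The drone pools had 11.45, 11.39, 9.38 and 10.91, with a mean of 10.78 ± 0.97 (SD, n = 4). The lowest worker pool stood 2.07 above the highest drone pool, a separation that the choice of the gene by its ratio favours. Within a sex, pools differed by up to 6.53-fold in worker and 4.21-fold in drone, and array 3 was lowest in both. The ratio within an array varied less than either level, with an SD of 0.30.

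The duplicate spots differed slightly more than those of the median gene. The first minus the second spot's log2 ratio was -0.25, 0.35, 0.26 and -0.18 on arrays 1 to 4. Its root mean square was 0.27, against a median of 0.23 over all genes, and 204 of 313 genes had a smaller value. The SD of the gene's ratio over arrays, 0.30, was below the median of 0.41 over all genes, and 96 genes had a smaller one.

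The dye effect is the contrast that the choice of the gene did not use, since the swap was even. After loess, the mean log2 ratio was 4.22 on the arrays with worker in Cy5 (4.30 and 4.15) and 4.68 on those with worker in Cy3 (4.84 and 4.52). The Cy3 pair was higher. The Cy5 over Cy3 coefficient of AmCyp006BE1 was -0.23 ± 0.19 (SE, n = 4 arrays) and did not pass the limma test (adjusted p = 0.505 over 313 genes). Over all genes 0.319% passed that test. The sign of the coefficient depends on the normalization and was positive without loess, except under housekeeping centring. The dye difference was small beside the worker over drone ratio in either orientation.

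The size of the ratio depended on the normalization mainly through array 4. With no normalization the ratios on arrays 1 to 4 were 4.15, 4.82, 4.53 and 3.36. Subtracting the median log2 ratio of each array gave 4.79, 4.52, 4.61 and 2.22. Subtracting that of the housekeeping genes gave 4.29, 4.62, 3.86 and 4.69. Array 4 was thus the lowest array under the first of these, median centring, and the highest under the second, housekeeping centring. The means were 4.22, 4.03 and 4.37. These 3 settings differ by a constant per array, so the order of the mean ratios of the genes is the same in each by construction. The median ratio of all genes was 0.25 with housekeeping centring and 0.10 with no normalization. Relative to the median of all genes, which moves by the same constants, AmCyp006BE1 stood at 4.11 in these settings and at 4.47 after loess.

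**Figure D4:**
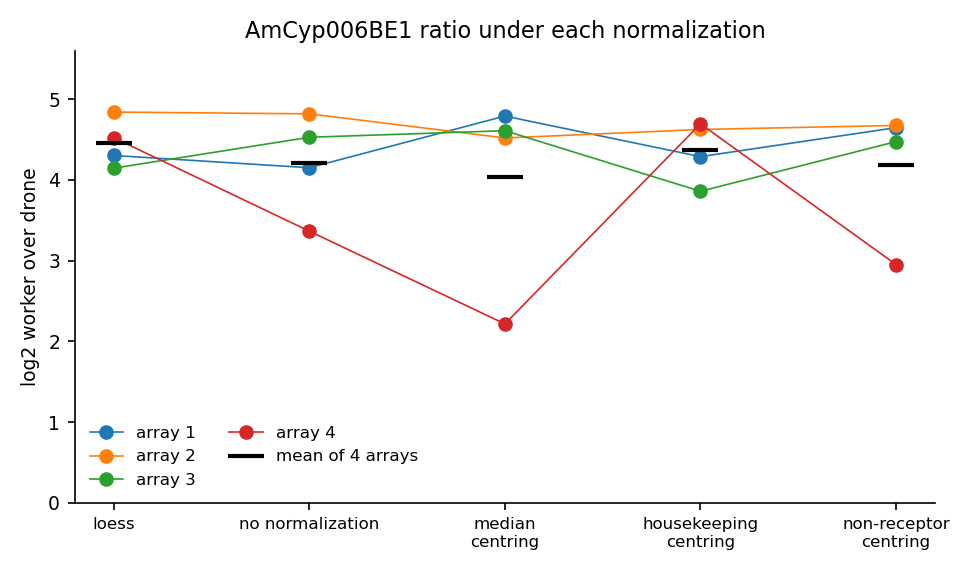
Log2 worker over drone ratio of AmCyp006BE1 on each array (points) and its mean (bars) under loess, no normalization and 3 kinds of centring. Arrays 1 to 3 stay between 3.86 and 4.84, while array 4 ranges from 2.22 under median centring to 4.69 under housekeeping centring.

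Against this, the other P450s of the array showed small ratios in both directions. The next P450, AmCyp335B3, had a log2 ratio lower by 3.09. Of the other 48 P450 genes, limma called 3 as worker-biased and 4 as drone-biased at an adjusted p under 0.05. Of the 313 genes tested in this fit, after loess, 11.8% were called, 7.35% as higher in worker and 4.47% as higher in drone. No such share is given for the other settings that follow, so their counts are not a result about the P450s in particular. The remaining 41 P450s were not called. These counts depended on the normalization. By limma 0 were called in either direction without normalization or with median or housekeeping centring, where 4, 3 and 2 in worker and 4, 4 and 0 in drone had an unadjusted p under 0.05. Centring on genes that are not odorant receptors left 0 in worker and 1 in drone, where 5 and 4 had such a p. With the ratios of the authors' deposited table, 2 were called in worker and 4 in drone. The log2 ratios of the 48 ran from -1.55 to 1.37. The median was -0.09, against -0.02 for all other genes. It was 0.15 under housekeeping centring and 0.0035 without normalization, against 0.25 and 0.10 for all other genes. The list's median was thus a little below that of all other genes in each of these settings.

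Within CYP6, 1 of the other 21 genes was higher in worker and 2 were higher in drone. All 3 were CYP6AS genes, a subfamily of which some members are known in the honey bee to act on the flavonoid quercetin. AmCyp006AS14 had log2 ratios of 1.18, 0.98, 0.31 and 1.61 on arrays 1 to 4 and was higher in worker (mean 1.02 ± 0.24 SE, limma adjusted p = 0.0359). AmCyp006AS04 had -0.81, -0.66, -0.74 and -0.68 and was higher in drone (mean -0.73 ± 0.15 SE, limma adjusted p = 0.0254). AmCyp006AS05 was also higher in drone, with -0.63, -0.69, -0.56 and -0.58 (mean -0.61 ± 0.15 SE, limma adjusted p = 0.0443). Each of these genes had one direction on 4 of 4 arrays. AmCyp006BD1, close to AmCyp006BE1 in name, had -0.39, -0.22, -0.43 and -0.22 and was not called (mean -0.31 ± 0.15 SE, limma adjusted p = 0.306). The median of the 21 was -0.15, against -0.02 for all other genes. Under housekeeping centring it was 0.07, against 0.25 for all other genes. Of the 21, 11 were above the negative controls on at least 3 arrays in worker and 10 in drone, and 5 exceeded them nowhere. Over all 312 other genes these numbers were 96, 89 and 77. With oligo 4 kept, 1 of the 21 was above on at least 3 arrays in worker and 3 in drone. Of the 312, 25 and 28 were.

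Among the 27 P450s outside CYP6, AmCyp335B3 and AmCyp335B1 were higher in worker, with mean log2 ratios of 1.37 ± 0.23 and 1.13 ± 0.15 (SE, limma adjusted p = 0.00991 and 0.0040). AmCyp302A1, named as the Drosophila gene of a step in moulting hormone synthesis, was higher in drone with -0.66 ± 0.15 (SE, limma adjusted p = 0.0359), and exceeded the controls in 2 of 4 pools of each sex. AmCyp305D1 exceeded the controls in 2 of 4 drone pools and in 0 of 4 worker pools. Its mean log2 ratio was -1.55 ± 0.24 (SE, limma adjusted p = 0.00677), a fit that used worker values below the controls. With worker levels raised to the lowest level above the controls, its drone level was 1.28-fold higher. That fold is not a firm bound, since drone values below the controls entered it. The 2 worker genes and 2 drone genes here make up the rest of the 7 calls. Without array 1, AmCyp006AS04, AmCyp006AS05, AmCyp006AS14, AmCyp302A1 and AmCyp335B3 were not called, and without array 2 neither these nor AmCyp305D1 were. Without array 3, AmCyp006AS04, AmCyp006AS05, AmCyp302A1 and AmCyp335B3 were not called, and without array 4 AmCyp006AS05 and AmCyp302A1. AmCyp335B1 was called in each case. The worker count was 1, 1, 2 and 5 and the drone count 1, 0, 1 and 2 without arrays 1, 2, 3 and 4. Without array 2, 5 other P450s had an unadjusted p under 0.05 in the drone direction. The share called over all genes with an array left out is not given, so a change in these counts is not particular to P450s.

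**Figure D5:**
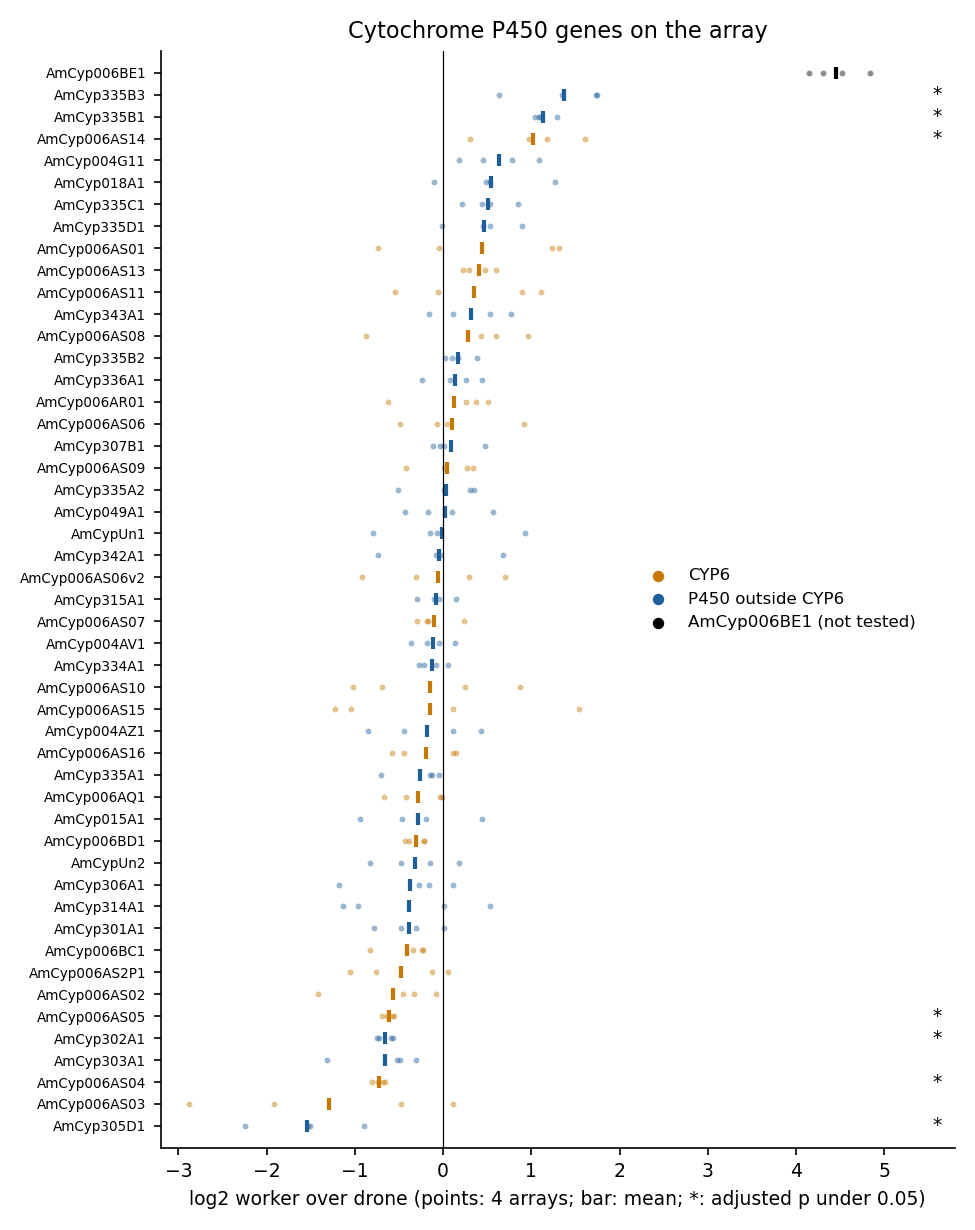
Log2 worker over drone ratio of the 49 P450 genes, with 4 array values (points) and the mean (bar) for each, coloured by CYP6 or other family, and a star where the limma adjusted p was under 0.05. AmCyp006BE1 lies at 4.15 to 4.84 and the next mean is 1.37.

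The array also holds other enzyme classes that act on foreign compounds. Of 7 glutathione S-transferases, which join glutathione to such compounds, 1 was higher in each sex. Of 10 carboxylesterases, which cleave esters, 2 were higher in drone and 0 in worker by limma, with 3 and 1 at an unadjusted p under 0.05. The share called over all 313 genes was 11.8%, with 7.35% higher in worker and 4.47% higher in drone. Of the 312 genes other than AmCyp006BE1, 31 in drone and 36 in worker had an unadjusted p under 0.05 by limma. The log2 ratios of the 17 genes ran from -4.77 in AmCEst01, a carboxylesterase named after its values were seen, to 1.39 in AmGST7. AmCEst01 had -5.03, -5.91, -3.25 and -4.91 on arrays 1 to 4, larger in size than AmCyp006BE1 on arrays 1, 2 and 4 and toward drone. Of its 8 drone spots, 6 had a saturated median.

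The genes most like AmCyp006BE1 in their pattern were sought in 2 ways, both descriptions. AmCyp006BE1 ranked first by ratio on each array, so the first way mostly returns the genes with the next-highest ratios. By the root mean square distance between log2 ratios over 4 arrays, the nearest were AmOBP11 at 1.08, AmAAR2, an alpha-arrestin, at 1.18, AmOBP19 at 1.41, AmOBP02 at 1.64 and AmOBP13 at 2.42. The AmOBP genes are odorant binding proteins, the soluble carriers of odorants in sensillum fluid. AmOBP11 had log2 ratios of 3.63, 3.41, 3.46 and 3.24, lower than AmCyp006BE1 on every array, as every other gene was. AmAAR2 had 3.68, 4.08, 2.42 and 3.24. Like AmCyp006BE1, it was highest on array 2 and lowest on array 3.

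By Pearson's r over the 8 pool levels, the most alike were AmCg5 at 0.99, AmAAR2 at 0.96, the receptor AmOr112 at 0.96, the tetraspanin AmTspan12 at 0.95 and AmOBP11 at 0.95. The 8 levels share 4 arrays and fall into 2 separate sexes, so r mostly records the step between them. AmCg5 had levels on the log2 scale of 11.40, 11.47, 10.56 and 10.87 in worker and 9.83, 9.74, 8.78 and 9.47 in drone. It was lowest on array 3 in both sexes, as AmCyp006BE1 was. AmOr112 exceeded the negative controls in none of the 8 pools.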

How the data were processed

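Spot intensities were deposited by the authors without normalization and, per the file headers, are foreground medians and means and local background medians at 635 nm (Cy5) and 532 nm (Cy3). The deposited files also hold a percent of saturated pixels and of pixels above background per spot, and a quality score whose code -75 marks an absent spot. A further deposited table holds 1 log2 ratio per spot and array, of unstated method. The scanner and image software are not given in the sources used here.

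Here, foreground medians were background-corrected by normexp (offset 50), log ratios were normalized by loess within arrays with control spots at weight 0, and duplicate spots were averaged, using limma 3.58.1 under R 4.3.3. A change common to most genes would be removed by loess. Ratios were fitted with lmFit and eBayes, two-sided, Benjamini-Hochberg adjusted over 313 genes and called under 0.05, and a second fit held a dye coefficient. SE is limma's. A gene above the controls on no array of a sex also has a fold against a floor. For it, the dimmer sex's level on each array was raised to the lowest level above the controls where it lay below that, and the means were then compared. The brighter sex's level was used as measured, also where it was below the controls. The number of arrays limits the precision. The fits were tested on simulated data.

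AmCyp006BE1, the lists and the tests were chosen with earlier results of these data known. Named genes were the called P450s, AmCyp006BD1, the next gene, the 5 most alike by each measure, and the tissue markers. The alternatives are given with the closing results.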

Additional observations from a re-analysis of the deposited data

Results flagged for a closer look

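AmOBP01, an antennal binding protein used as a tissue marker, had 1 array far from the other 3. Its log2 worker over drone ratio was -3.25 on array 2 and -0.01, 0.12 and -0.12 on arrays 1, 3 and 4. The spot median reached the top of the scale in 3 drone and 2 worker pools, and the part of saturation in this difference was not tested. Of 31 sets of 4 array values examined, 1 stood apart in this way, where chance marks about 1 in 20. No set of values of AmCyp006BE1 did.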

How the results depend on the processing

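The log2 ratio of AmCyp006BE1 was 4.45 and ran from 4.00 to 4.69 over 23 alternatives with dyes from the label fields, and from 4.32 to 4.56 when 1 array was left out. Of all 24 settings, 21 moved it by less than the SD between arrays. It moved further, to 4.03, under median centring and to 4.00 in the authors' deposited table, and became -2.30 with the dyes of the protocol text. The dye coefficient, -0.23, turned to 0.67 under median centring, 0.37 under centring on genes that are not odorant receptors and 0.12 without normalization, with adjusted p from 0.257 to 0.869 over 17 settings. The other P450s called higher in worker numbered 3 and ranged from 1 to 5 when 1 array was left out. They numbered 0 by limma without normalization, with centring on the median, on housekeeping genes or on non-receptors, and with the protocol text dyes, where 4, 3, 2, 5 and 2 had an unadjusted p under 0.05. Those called higher in drone numbered 4 and ranged from 0 to 2 when 1 array was left out. They numbered 2 with plain background subtraction, 2 among genes above the negative controls, 1 under non-receptor centring, and 0 without normalization, under median and housekeeping centring and with the protocol text dyes, where 4, 4, 0 and 1 had an unadjusted p under 0.05. These centrings omit loess, and the cause was not tested. The share called over all genes is not given for the alternatives, so these counts are not a result about the P450s in particular. None of the 7 called P450s changed sign in the settings with the label-field dyes. With a dye coefficient in the fit, 3 were higher in worker and 6 in drone. The drone genes added in that fit were AmCyp006AS03 and AmCyp303A1, both named after the calls were seen. AmCyp303A1 was above the negative controls on 0 arrays in worker and 0 in drone. Slide as a random block could not be fitted with 4 arrays on 3 slides, and arrays 3 and 4, which share a slide, had 4.15 and 4.52 for AmCyp006BE1. Every fit used the ratio within an array, which pairs 1 worker with 1 drone pool. With any saturated pixel left out, the dye coefficient has no value, since arrays of 1 orientation remain.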

Other observations

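AmCyp006AS03, a CYP6AS gene named after its values were seen, had the lowest mean log2 worker over drone ratio among the CYP6 genes, with 0.11, -0.48, -2.88 and -1.92 on arrays 1 to 4. It was above the negative controls on 4 arrays in both sexes and was not called by limma (mean -1.29 ± 0.48 SE, adjusted p = 0.173). With a dye coefficient in the limma fit it was called higher in drone, at an adjusted p of 0.0260. The mean was the same in that fit, and the gene's dye coefficient was -0.09 ± 0.37 (SE, limma adjusted p = 0.905). Why the call differed between the fits was not tested. Arrays 3 and 4, where its ratio was lowest, share a slide.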
